A study of Homo sapiens with 36 samples.

Results

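The cytosolic ribosomal protein genes encode the proteins of the ribosome, and 77 of the 60676 genes in the deposited count table belonged to them. A gene was taken when its symbol was RPL or RPS followed by a number, with an optional A or X, or was RPLP0, RPLP1, RPLP2 or RPSA, and when its mean over all libraries was at least 1 CPM, a count scaled to a fixed library total. All 77 genes with such a symbol passed that minimum, so none lay just below it, and the lowest mean was 3.14 CPM, in RPL36A. Of the 77, 46 encode proteins of the large subunit and 31 proteins of the small subunit, and all 77 entered the test among 15744 genes.

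The libraries were RNA-seq of LNCaP, an established human prostate carcinoma line whose growth depends on the androgen receptor. Cells grown in RPMI 1640 with 10% fetal bovine serum received the solvent DMSO, 3 µM enzalutamide (an antagonist of the androgen receptor), 3 µM olaparib (an inhibitor of the PARP enzymes of DNA repair) or both drugs, here called the combination. RNA was taken at 8, 24 or 72 h, which gave 12 groups of 3 cultures and 36 libraries. A single cell line was used, so the cultures do not sample different donors or lines.

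A ribosome joins a small subunit, which reads the mRNA, to a large subunit, which forms the peptide bond, and most ribosomal proteins are present once in each particle. In many mammalian ribosomal protein mRNAs the first transcribed base is a C followed by an unbroken stretch of C and T, the terminal oligopyrimidine tract, through which mTOR signalling controls their translation. Growing cells make these mRNAs in large amounts, and MYC and RNA polymerase I activity are classical partners of ribosome production.

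The start of these genes is shown here because the tract is the sequence feature the family is known for, and because many members moved together at 72 h. The windows hold 40 bases before and 20 bases after the RefSeq transcription start (GRCh38.p14). Capitals mark the longest unbroken run of C and T that touches positions -5 to +6. The first 5 are the members that fell most with enzalutamide at 72 h among those called.

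RPS25: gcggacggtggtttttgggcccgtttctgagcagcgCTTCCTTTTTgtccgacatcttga
RPL18: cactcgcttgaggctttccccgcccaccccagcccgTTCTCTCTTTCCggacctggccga
RPS3: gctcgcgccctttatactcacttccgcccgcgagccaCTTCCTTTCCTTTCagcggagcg
RPS24: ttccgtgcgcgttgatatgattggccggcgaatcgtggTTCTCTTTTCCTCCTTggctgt
RPS19: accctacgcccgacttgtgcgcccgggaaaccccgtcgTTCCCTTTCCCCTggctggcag

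The next 5 are the members with the highest log2 fold change among those not called in the same comparison and with a RefSeq window.

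RPL29: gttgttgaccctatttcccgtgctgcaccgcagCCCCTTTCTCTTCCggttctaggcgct
RPL15: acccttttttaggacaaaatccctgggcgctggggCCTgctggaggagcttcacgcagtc
RPS27: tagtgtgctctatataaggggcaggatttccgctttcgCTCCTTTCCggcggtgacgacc
RPS26: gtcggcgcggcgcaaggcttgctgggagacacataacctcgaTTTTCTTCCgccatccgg
RPS7: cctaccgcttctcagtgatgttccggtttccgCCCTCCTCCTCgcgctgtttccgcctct

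These windows lie at chr11:119018324-119018383 (minus strand), chr19:48619159-48619218 (minus strand), chr11:75399478-75399537 (plus strand), chr10:78033823-78033882 (plus strand) and chr19:41860215-41860274 (plus strand) for the first 5 and at chr3:51995876-51995935 (minus strand), chr3:23916505-23916564 (plus strand), chr1:153990722-153990781 (plus strand), chr12:56041878-56041937 (plus strand) and chr2:3575220-3575279 (plus strand) for the others, each around the annotated start of its gene. The runs of the first 5 were 10 to 16 bases long, and those of the other 5 were 14 bases in RPL29, 11 in RPS7, 9 in RPS27, 9 in RPS26 and 3 in RPL15. Long runs were thus present in members that fell and in members that were not called. RefSeq windows were found for 62 of the 77 members, 77 windows in all. A run of 8 or more C or T at the start was present in 70.1% of the members' windows and in 11.5% of all 35116 windows, with a median run of 11 bases against 4. The first transcribed base was a C in 66.2% of the members' windows against 14.7% of all.

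In the 300 bases from 250 before to 50 after the start, searched on both strands, CTTCCGG was present in 33.8% of the members' windows against 10.3% of all windows. AAGATGGC was present in 7.79% against 2.89%. TATAAA was present in 6.49% against 11.5%, and CACGTG in 5.19% against 7.26%. CTTCCGG begins with C and T only, so a match near the start can form part of a run. These are matches of letters, and no binding was measured.

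The libraries held 4153378 to 15424845 counts, with a median of 9625577. KLK3 and TMPRSS2, the classical targets of the androgen receptor, fell with enzalutamide at 72 h by 6.67 and 2.56 on the log2 scale, and CDKN1A, a target of p53, rose with olaparib by 1.62. All 10 luminal prostate markers had counts in every library. Of 14 markers of other cells, KRT5, TP63 and CDH5 had no count, COL1A1 reached 29.6 CPM, VWF 10.3 CPM, and the others were at most 2.75 CPM. DMSO at 72 h replicate 1 stood apart: mitochondrial genes took 1.54% of its counts, against 3.97% to 7.05% in the other 35 libraries. The numbers of members called at 72 h that rest on DMSO are given with and without replicate 1. Counts by subunit, by promoter and of groups that do not overlap, and those of the gene lists, are given only with replicate 1. Leaving out replicate 1 keeps replicate 3, whose mitochondrial share was also below that of every drug library at 72 h. The part of the mitochondrial share in them was not tested.

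The members together took 8.44% to 9.79% of all counts. Counts are relative to each library's total, so a fall in these mRNAs and a rise in the rest of the RNA cannot be told apart, and neither can fewer cells and less RNA per cell. At 72 h the members' share was 9.46% ± 0.404 (SD, n = 3) in DMSO, 8.58% ± 0.111 with enzalutamide, 8.95% ± 0.0722 with olaparib and 8.86% ± 0.164 with the combination. All 3 enzalutamide libraries lay between 8.46% and 8.66%, below every DMSO library. At 8 h the DMSO libraries alone ranged from 8.47% to 9.52% and overlapped all 3 drug groups.

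**Figure D1:**
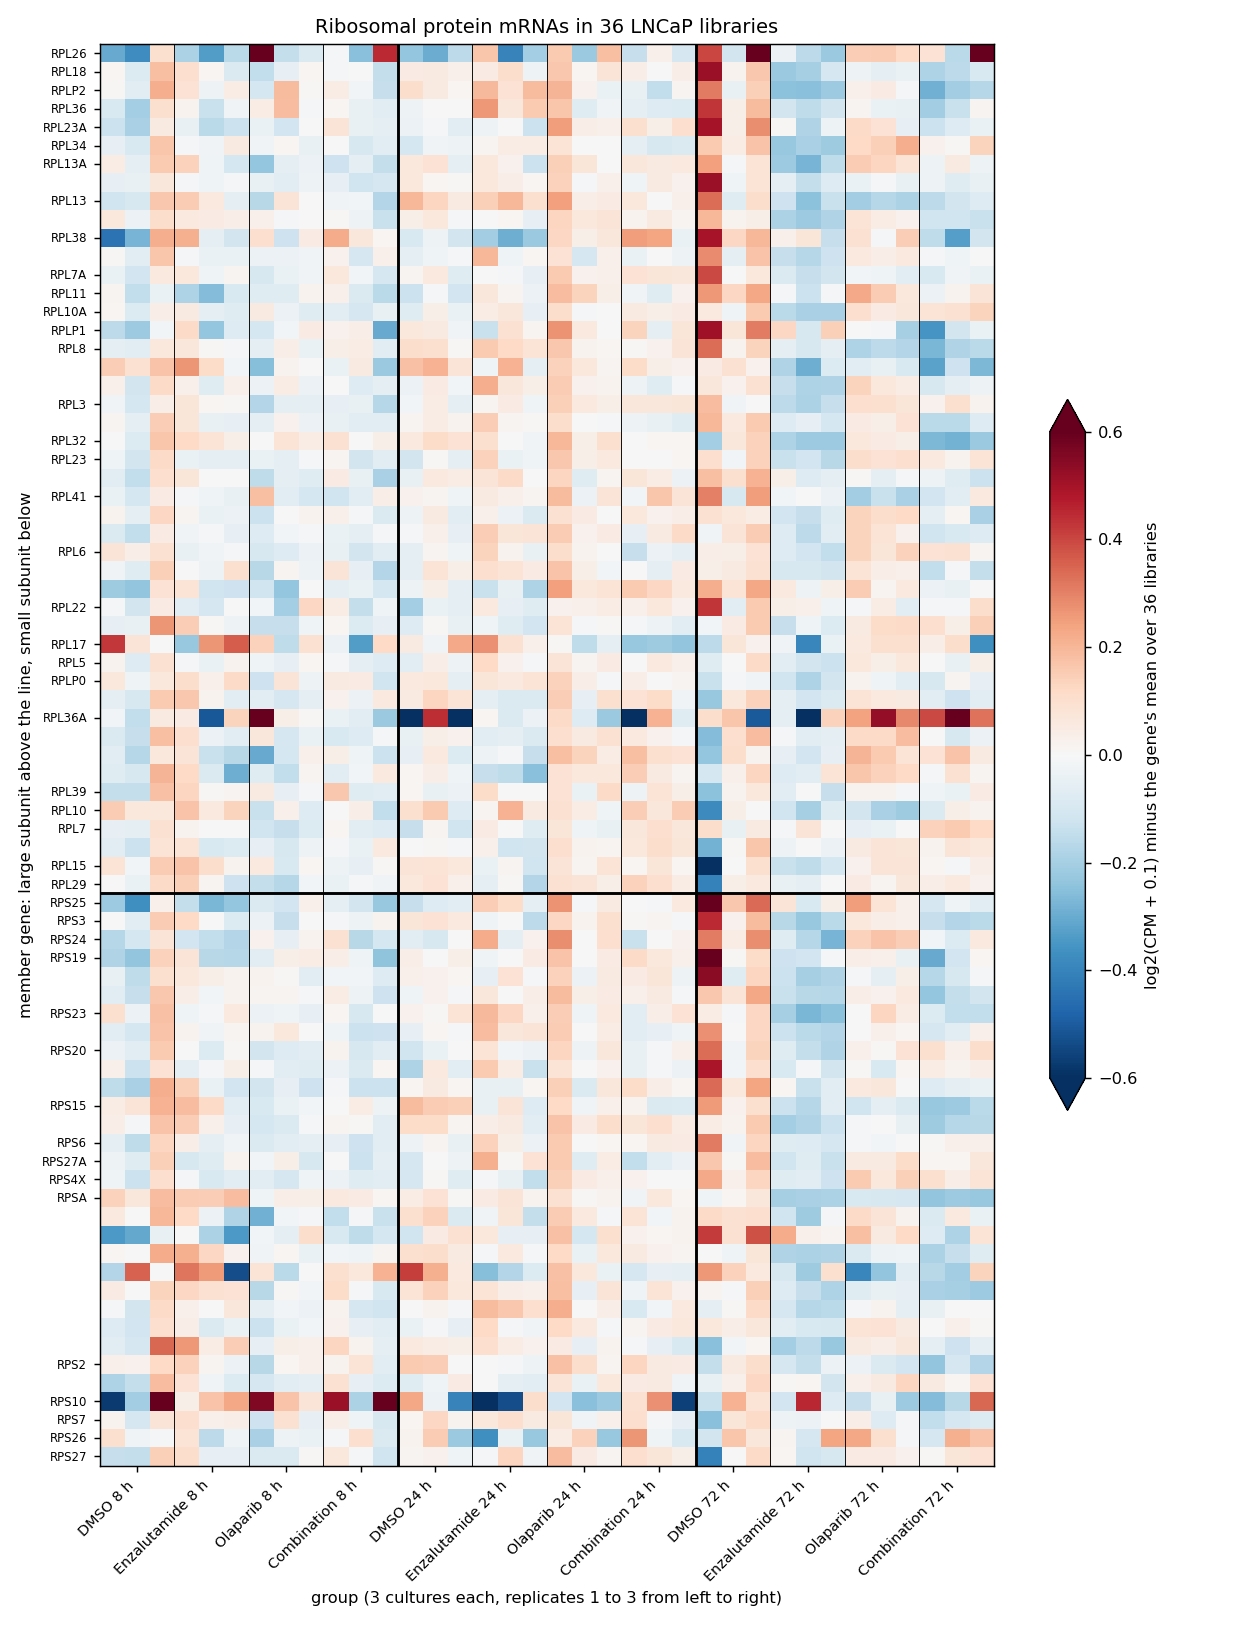
Each row is 1 of the 77 genes and each column 1 of the 36 libraries, with colour for log2(CPM + 0.1) minus the gene's mean over all libraries, and rows ordered within each subunit by the log2 fold change with enzalutamide at 72 h; names stand beside the members described in the text. The 3 enzalutamide columns at 72 h are blue over most rows (8, 11 and 12 of 77 members lie above their own mean there). Single libraries are red over most rows, such as olaparib at 24 h replicate 1 (76 of 77), DMSO at 72 h replicate 3 (74 of 77) and DMSO at 8 h replicate 3 (71 of 77).

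Levels between genes are compared per kilobase of mRNA, taking 1 principal GENCODE 29 transcript for each gene. The median member stood at 1203 CPM per kilobase. RPS2, a small-subunit protein at the mRNA entry side, was highest at 5889 CPM per kilobase, followed by RPL7A at 4573 and RPL13A at 4087, and RPL29 was also among the 5 highest at 3147. RPL36A was lowest at 7.32 and RPS10 next at 10.8 CPM per kilobase, and RPL17 at 20.5 and RPL22 at 35.6 were also among the 5 lowest. Exons of another counted gene cover much of the coding bases of these 4 genes. The share was 94.3% for RPL36A (with the read-through gene RPL36A-HNRNPH2), 92.1% for RPS10 (with RPS10-NUDT3) and 100% for RPL17 (with RPL17-C18orf32). RPL22 shared 59.9% of its coding bases and RPL26 71.0%. Counting ignored strand, so a fragment over 2 genes could be left out, and the levels of these members are uncertain. No coding base was shared in 63 members.

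Reads of a member can also be counted for its processed pseudogenes, of which 1587 carried a member's name. Counts in pseudogenes made up over 10% of the summed counts of gene and pseudogenes in 17 members, with a median of 4.01% over the 77. The share was 98.2% for RPL36A, 93.5% for RPL17 and 77.3% for RPS10. It was at most 3.34% for RPS25, RPL18, RPS3, RPS24 and RPS19.

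Most members were measured with a small spread. The standard deviation of log2 CPM within groups had a median of 0.08 over the members and 0.16 over all genes tested. RPL36A (0.36), RPS10 (0.34), RPL26 (0.30) and RPL17 (0.18) were among the most variable, and each of these shares over 70% of its coding bases with another gene. Among the groups, the median member SD was widest in DMSO at 72 h (0.14), followed by DMSO at 8 h (0.11), and 0.03 to 0.08 in the other 10. The median SD over all genes tested was also widest in DMSO at 72 h (0.21), so the wide spread there was not particular to the members. It was 0.13 in DMSO at 8 h, within the range of 0.11 to 0.14 of the groups other than DMSO at 72 h. In DMSO at 8 h, 71 of 77 members were highest in replicate 3, and with olaparib at 24 h 72 of 77 were highest in replicate 1. In DMSO at 72 h, replicate 1 was the highest of the 3 for 35 members and the lowest for 25, so there the members spread in both directions. Replicate 3 of that group was the highest for 34 members and the lowest for 4. In it 74 of 77 members lay above their own mean over all libraries.

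At 8 h no member was called with any drug. Here and below a gene is called at a Benjamini-Hochberg adjusted p under 0.05 in edgeR's quasi-likelihood test over all 15744 genes, and log2 fold changes come with their standard error. Enzalutamide called 0 of 77 members where 3.02% of all genes were called, olaparib 0 where 1.32% were, and the combination 0 where 5.98% were. At an unadjusted p under 0.05 the counts were 1, 12 and 7 members, and DESeq2 called 0, 0 and 1. The median log2 fold changes were 0.00, -0.04 and -0.04. The highest value with olaparib was that of RPL26 (0.46 ± 0.21, adjusted p = 0.315), and the lowest with the combination that of RPL17 (-0.30 ± 0.14, adjusted p = 0.234), both genes with shared reads. Without DMSO at 8 h replicate 3, the library highest for most members, enzalutamide called 2 members and the combination 1, all higher. With no low-count filter, olaparib called 2 members and the combination 2. The shares of all genes at the unadjusted threshold, in DESeq2, without that library and without the filter are not given here. These counts therefore have no background beside them.

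At 24 h few members were called. Enzalutamide called 1 member, where 18.8% of all genes were called, olaparib called 0, where 1.12% were, and the combination called 2, where 21.6% were. The median log2 fold changes were 0.02, 0.05 and 0.01, beside 0.01, -0.004 and 0.01 over all genes. With olaparib 61 members had a positive value and 16 a negative one. In its replicates 1 to 3, 76, 44 and 60 of 77 members lay above their own mean over all libraries. With olaparib 6 members had an unadjusted p under 0.05, and DESeq2 called 1. The shares of all genes beside those counts are not given here. With only the groups compared in the fit, enzalutamide called 9 members (4 higher and 5 lower, where 23% of all genes were called), olaparib 1 and the combination 8 (7 higher and 1 lower, where 30% were). RPS15, a small-subunit protein of the head, was at 957, 931 and 927 CPM in DMSO, 814, 886 and 794 CPM with enzalutamide and 852, 791 and 792 CPM with the combination. Neither drug group overlapped DMSO, and RPS15 fell by 0.17 ± 0.06 with enzalutamide (edgeR adjusted p = 0.037) and by 0.21 ± 0.06 with the combination (adjusted p = 0.00974), both on the log2 scale. The call with enzalutamide was lost under 8 of the other settings and left-out libraries tried, among them without DMSO at 24 h replicate 1, 2 or 3 and without enzalutamide replicate 1 or 3. With total counts in place of TMM scaling, or TMM factors computed without the members, the 1 member called with enzalutamide was higher, not lower. RPL7, a large-subunit protein, rose with the combination (log2 fold change 0.16 ± 0.05, adjusted p = 0.0209), from 1236, 1375 and 1252 CPM in DMSO to 1429, 1460.4 and 1428 CPM. That call was lost without DMSO at 24 h replicate 1 or 3 and without the combination's replicate 2. Reads in RPL7 pseudogenes made up 10.4% of the summed counts.

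At 72 h most of the family was lower with enzalutamide. Of 77 members 48 fell and 0 rose, or 62.3% of the members, where 14.6% of all genes were called lower, 12.7% higher and 27.2% in either direction. The median log2 fold change was -0.21, a fall of 13.7%, beside a median of -0.01 over all genes, and 72 of 77 members had a negative value. The fall covered 26 of 46 large-subunit members (median -0.20) and 22 of 31 small-subunit members (median -0.22). In 48 members every enzalutamide library lay below every DMSO library, as in 17.7% of all genes. Without DMSO at 72 h replicate 1 the test again called 48 members lower, with a median of -0.18. The share of all genes called without that library is not given here. With each library left out in turn, 39 to 53 members were called. With only the DMSO and enzalutamide libraries of that hour in the fit, which then estimates the spread from 6 libraries, the median was again -0.21 but 8 members were called, all lower, or 10.4% of the members beside 13.7% of all genes.

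**Figure D2:**
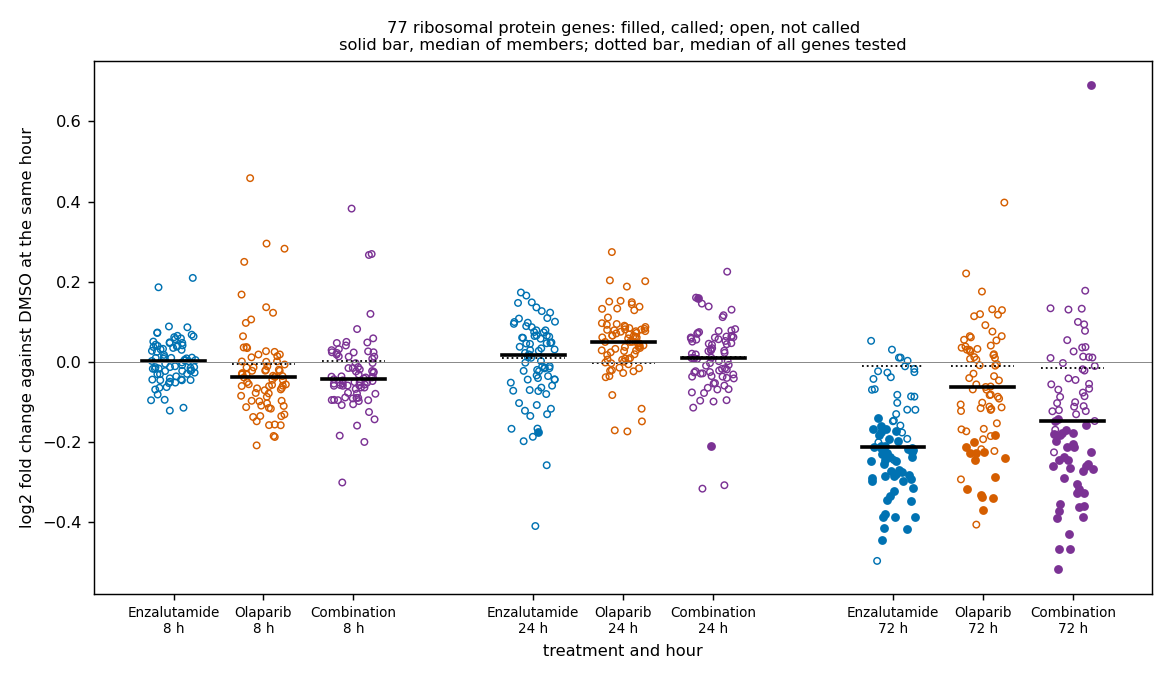
Points are the log2 fold changes of the 77 members against DMSO at the same hour in the 9 drug comparisons, filled where called and open where not, with a solid bar at the members' median and a dotted bar at the median of all genes tested. At 72 h the members' medians are -0.21 with enzalutamide, -0.06 with olaparib and -0.15 with the combination, while the medians of all genes stay at -0.01.

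RPS25, a small-subunit protein, fell most among the called members. At 72 h it was at 1344, 862 and 976 CPM in DMSO replicates 1 to 3 and 815, 724 and 789.8 CPM with enzalutamide. The groups did not overlap, with replicate 1 far above the other DMSO cultures, and the log2 fold change was -0.45 ± 0.10 (edgeR adjusted p = 0.000607). RPS3, which lines the channel where mRNA enters the small subunit, went from 2493, 1857 and 2082 CPM to 1625, 1559 and 1631 CPM, a log2 fold change of -0.42 ± 0.07 (adjusted p = 8.13e-06). All 3 enzalutamide libraries lay below the lowest DMSO library. RPL18, a large-subunit protein, was at 972, 688 and 757 CPM in DMSO and 582, 591 and 632 CPM with enzalutamide (-0.42 ± 0.08, adjusted p = 5.66e-05). RPS24 and RPS19, both among the genes mutated in Diamond-Blackfan anaemia, fell by 0.39 each, with standard errors of 0.08 and 0.11 (adjusted p = 0.000162 and 0.00582). RPS19 was at 463, 282 and 303 CPM in DMSO, and at 257, 259 and 278 CPM with enzalutamide. Without DMSO replicate 1 its value was -0.14 and the call was lost, while RPS25, RPS3, RPL18 and RPS24 were called without that library too. RPL26 had the lowest fitted value (-0.50 ± 0.20) but was not called (adjusted p = 0.0639), and its groups overlapped.

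**Figure D3:**
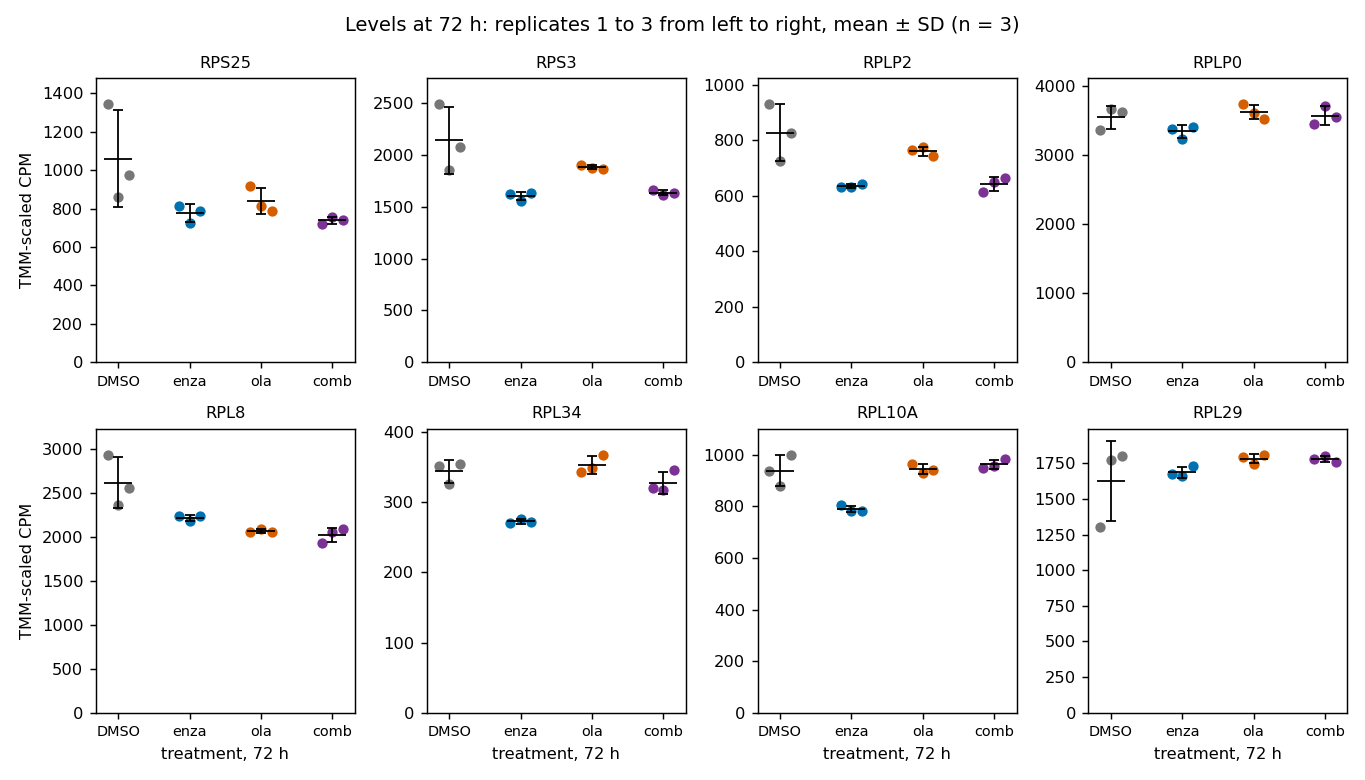
TMM-scaled CPM of 8 members at 72 h, with 1 point for each culture (replicates 1 to 3 from left to right) and the mean ± SD (n = 3), for DMSO, enzalutamide (enza), olaparib (ola) and the combination (comb). DMSO replicate 1 is the highest point for RPS25, RPS3, RPLP2 and RPL8 and the lowest for RPL29, and RPL10A is low with enzalutamide but not with the combination.

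The stalk of the large subunit, which recruits elongation factors, showed unequal values among its 3 proteins. RPLP2 was at 929.9, 725 and 826 CPM in DMSO and 631, 629.6 and 644 CPM with enzalutamide, and fell by 0.38 ± 0.08 on the log2 scale (adjusted p = 0.000191). RPLP0, the base of the stalk, was at 3358, 3665 and 3629 CPM and 3384, 3241 and 3403 CPM, which overlapped, with a log2 fold change of -0.09 ± 0.06 and a 95% interval of -0.20 to 0.02. RPLP1 had a value of -0.25 ± 0.10 and missed the threshold (adjusted p = 0.0631). The difference between these 3 genes was not tested.

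The 5S particle of the large subunit holds RPL5 and RPL11, which also bind MDM2 when they are free. RPL11 was at 1320.5, 1204 and 1297 CPM in DMSO and 1097, 1009 and 1095 CPM with enzalutamide, without overlap (-0.25 ± 0.06, adjusted p = 0.00122). RPL5 was at 818, 862 and 931 CPM and 821, 797 and 787 CPM and was not called (-0.12 ± 0.05, adjusted p = 0.0729). Near the peptidyl transferase centre, RPL3 fell (-0.22 ± 0.05, adjusted p = 0.00162), while RPL10, the last protein to join the large subunit, had a value of -0.03 ± 0.07 with a 95% interval of -0.17 to 0.12. RPL10 was at 546, 729.9 and 712 CPM in DMSO, where replicate 1 was the lowest. RPL39 and RPL41, the smallest proteins of the family, were not called, with values of -0.03 ± 0.07 and -0.18 ± 0.07, and neither was RPL22 (-0.15 ± 0.08).

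Small-subunit members chosen for their known roles also fell with enzalutamide at 72 h. RPSA, also known as a laminin receptor, was at 1545, 1588 and 1651 CPM in DMSO and 1372, 1376 and 1382 CPM with enzalutamide. The groups did not overlap, and it fell by 0.21 ± 0.04 (adjusted p = 0.000268). RPS6, the substrate of S6 kinase, fell by 0.23 ± 0.06 (adjusted p = 0.00541), RPS27A, made as a fusion with ubiquitin, by 0.23 ± 0.06 (adjusted p = 0.00538), and RPS4X, encoded on the X chromosome, by 0.22 ± 0.05 (adjusted p = 0.00242). RPL29 had the highest value of the family, 0.05 ± 0.07, with 1305, 1774 and 1800.3 CPM in DMSO and 1675, 1659 and 1729.9 CPM with enzalutamide. Its DMSO replicate 1 was below every enzalutamide library and the other DMSO libraries above them.

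The enzalutamide effect differed between 24 h and 72 h. The change of the enzalutamide effect from 24 h to 72 h was tested directly, and 29 members were lower and 0 higher, with a median of -0.22, where 4.57% of all genes were lower and 9.41% called in either direction. RPS25 had a difference of -0.61 ± 0.14 (adjusted p = 0.00325), RPL36 of -0.52 ± 0.11, RPS24 of -0.51 ± 0.11, RPLP2 of -0.48 ± 0.11 and RPL34 of -0.42 ± 0.08. The count was 24 without DMSO at 72 h replicate 1, 18 without DMSO at 24 h replicate 3, 18 with total counts in place of TMM scaling, and 11 with only the groups compared in the fit, where 3.88% of all genes were called. The DMSO cultures themselves showed a median of 0.08 between 24 h and 72 h, with 2 members called higher, RPS25 and RPL11 (log2 fold changes 0.55 ± 0.10 and 0.29 ± 0.06), where 0.146% of all genes were called. Both calls were lost without DMSO at 72 h replicate 1 and without DMSO at 24 h replicate 1 or 3. Members called numbered 29 without replicate 2, 14 in DESeq2 and 12 with no low-count filter. The shares of all genes called under these settings are not given here, so the counts have no background beside them. With only these 2 groups in the fit 0 members and 0% of all genes were called. From 8 h to 24 h the DMSO cultures had 0 members called by edgeR, where 0.648% of all genes were called. DESeq2 also called 0, and 1 member had an edgeR unadjusted p under 0.05.

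A comparison with no DMSO library was added after these values were seen. Enzalutamide cultures at 72 h against those at 24 h had 31 members lower and 0 higher, with a median of -0.13, where 6.59% of all genes were lower and 13.8% called. RPLP2 fell by 0.40 ± 0.08 (adjusted p = 0.000233), from 858, 796 and 852 CPM to 631, 629.6 and 644 CPM, and RPS23, which lies at the decoding centre, by 0.36 ± 0.06 (adjusted p = 1.3e-05). RPLP0 fell here as well (-0.21 ± 0.06, adjusted p = 0.00803), while RPS25 did not pass the test (-0.06 ± 0.10, adjusted p = 0.759). With total counts in place of TMM scaling, 15 members were lower and 2 higher, with a median of -0.08 beside 0.04 over all genes. The count was 16 without enzalutamide at 24 h replicate 1 or at 72 h replicate 2, and 19 without the latter hour's replicate 1 or 3. The same comparison called 4 members with olaparib (all lower, where 11% of all genes were called) and 13 with the combination (11 lower and 2 higher, where 15.7% were). The olaparib count was 0 without the 24 h replicate 1 and 2 without the 72 h replicate 1 or 3. The combination count was 7 without the 72 h replicate 1 or 2, and with total counts 8 members were lower and 3 higher. With only the groups compared in the fit, 13 members were called with olaparib and 30 with the combination, where 17.9% and 22.9% of all genes were.

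At 72 h a smaller set of members was lower with olaparib, and the share called was close to that of all genes. Of 77 members 14 fell and 0 rose, or 18.2% of the members, where 9.69% of all genes were called lower, 8.22% higher and 17.9% in either direction, with a median of -0.06. Of the 14, 10 encode large-subunit and 4 small-subunit proteins. RPLP1 of the stalk was at 2345, 1730.2 and 2035 CPM in DMSO and 1648, 1638 and 1434 CPM with olaparib and fell most (-0.37 ± 0.10, adjusted p = 0.00767). RPL8, at the peptidyl transferase centre, was at 2928, 2362 and 2548 CPM in DMSO and 2047, 2087 and 2055 CPM with olaparib (-0.34 ± 0.06, adjusted p = 5.36e-05). RPL41, the shortest member with 25 residues, was at 637, 483 and 613 CPM and 446, 470.3 and 452 CPM (-0.34 ± 0.07, adjusted p = 0.00129). RPL8 and RPL41 did not overlap DMSO, and both were at or above their olaparib level in all enzalutamide libraries, at 2237, 2173 and 2232 CPM and 511, 515 and 504 CPM. RPL13 (-0.32 ± 0.08) and RPS25 (-0.33 ± 0.10) were the other 2 of the 5 largest called falls. With only the DMSO and olaparib libraries of that hour in the fit, 0 members were called, where 4.49% of all genes were. The calls also depended on single libraries: 4 members were called without DMSO at 72 h replicate 1, 25 without replicate 2, and 5 to 7 without any 1 olaparib culture, and the calls of RPLP1, RPS25 and RPL13 were lost without DMSO replicate 1. The change of the olaparib effect from 24 h to 72 h called 4 members, all lower (RPS25, RPL41, RPL23A and RPL8), or 5.19% of the members, where 2.76% of all genes were lower and 4.6% called in either direction. It called 0 with only the groups compared in the fit, 11 with no low-count filter, 0 without olaparib at 24 h replicate 1, the library that was highest for 72 members, 2 without DMSO at 72 h replicate 1 or any 1 olaparib culture at 72 h, and 21 without DMSO at 72 h replicate 2.

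The combination at 72 h lowered 37 members and raised 1, where 22.6% of all genes were called lower, 20% higher and 42.5% in either direction. The median was -0.15 beside -0.01 over all genes. Without DMSO at 72 h replicate 1, 31 members were lower and 2 higher. With only the DMSO and combination libraries of that hour in the fit, 15 members were called, all lower, or 19.5% of the members beside 30.1% of all genes, with a median of -0.13. RPS25 was at 719, 758 and 738 CPM and fell by 0.52 ± 0.10 (adjusted p = 4.83e-05). RPLP1 was at 1289.7, 1524 and 1601 CPM (-0.47 ± 0.10, adjusted p = 0.000218), and both lay below all DMSO libraries. RPL38, known for its part in patterning the mouse axial skeleton, was at 158, 122 and 129 CPM in DMSO and 101, 89.1 and 104 CPM with the combination (-0.47 ± 0.11, adjusted p = 0.000701). RPS19 (-0.43 ± 0.11) and RPS3 (-0.39 ± 0.07) followed, the former with overlapping groups and a call that was lost without DMSO replicate 1, where its value was -0.19. RPS2, the member with the highest level, fell with the combination (-0.18 ± 0.06, adjusted p = 0.0209), though its groups overlapped. The change of the combination's effect from 24 h to 72 h called 14 members, all lower, where 5.41% of all genes were lower and 8.7% called in either direction. RPL38 (-0.69 ± 0.15), RPS25 (-0.63 ± 0.14), RPLP1 (-0.49 ± 0.14), RPL23A (-0.48 ± 0.11) and RPS19 (-0.47 ± 0.15) had the largest differences. The call of RPS19 was lost under 13 of the other settings and left-out libraries, among them without DMSO at 72 h replicate 1 and in DESeq2. The count of 14 was 10 without DMSO at 72 h replicate 1, 5 with only the groups compared in the fit, 9 with total counts, 5 without DMSO at 24 h replicate 3, 6 to 8 without any 1 combination culture other than replicate 3 at 72 h, and 29 without DMSO at 72 h replicate 2.

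RPL36A was the member that rose with the combination. It was at 3.26, 3.41 and 2.11 CPM in DMSO and 4.02, 5.95 and 3.82 CPM with the combination (0.69 ± 0.27, adjusted p = 0.0363). DESeq2 did not call it, the call was lost without DMSO replicate 3 or the combination's replicate 2, and with its pseudogenes' counts added the value was -0.23. The value of this gene is uncertain for the shared reads given above.

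The 3 comparisons at 72 h share the DMSO libraries, so a departure of those libraries moves all of them. The libraries came from 3 sequencing lanes, 1 library of each group in each lane. Within lanes 5, 6 and 7 the median member difference between enzalutamide and DMSO at 72 h was -0.21, -0.26 and -0.13, with 76, 62 and 71 of 77 members lower. The same differences were -0.09, -0.09 and 0.03 for olaparib and -0.14, -0.20 and -0.06 for the combination.

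The single drugs were also compared with each other at 72 h, with no DMSO library, again added after the values were seen. Enzalutamide cultures had 29 members lower and 0 higher than olaparib cultures, with a median of -0.14, where 15.2% of all genes were called lower and 31% in either direction. In 53 members every enzalutamide library lay below every olaparib library, as in 23.5% of all genes, and in 2 every one lay above, as in 23.3%. RPL34, a large-subunit protein, was at 269.9, 276 and 272 CPM with enzalutamide and 343, 349 and 368 CPM with olaparib, a difference of -0.37 ± 0.05 (adjusted p = 7.85e-07). RPL13A (-0.34 ± 0.07), RPS24 (-0.33 ± 0.08), RPS23 (-0.30 ± 0.06) and RPLP2 (-0.26 ± 0.08) were lower as well. With total counts in place of TMM scaling, 12 members were lower and 3 higher, and the median of all genes moved to 0.09 while that of the members was -0.06. With only these 2 groups in the fit, 53 members were lower and 3 higher, where 41.2% of all genes were called.

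The combination was also compared with each single drug. Against enzalutamide at 72 h, 9 members were higher and 0 lower, with a median of 0.06, where 6.46% of all genes were higher and 14.5% called in either direction. RPL10A was at 803, 784 and 784 CPM with enzalutamide, 964, 927 and 942 CPM with olaparib and 948, 956 and 983 CPM with the combination. Enzalutamide alone stood below the others, and the difference between the combination and enzalutamide was 0.28 ± 0.05 (adjusted p = 0.000109). RPL34 (0.27 ± 0.05), RPL13A (0.21 ± 0.07), RPS20 (0.21 ± 0.06), RPL3 (0.21 ± 0.05), RPL23 (0.19 ± 0.05), RPL6 (0.18 ± 0.05) and RPS4X (0.16 ± 0.05) were also higher, as was RPL36A (0.77 ± 0.26), which has few reads. With only these 2 groups in the fit, 27 members were higher and 2 lower, where 20.5% of all genes were called. With each library left out in turn, 6 to 8 members were called in place of 9. The calls of RPS4X, RPL36A and RPL13A were lost under 8, 6 and 3 of the other settings and left-out libraries. Against olaparib, 15 members were lower and 1 higher, where 18% of all genes were lower, 16.3% higher and 34.2% called, a larger share than the 20.8% of members. RPL32, a large-subunit protein, was the lowest of them (-0.31 ± 0.06, adjusted p = 0.000134), and RPL7 the higher one (0.17 ± 0.05). With only these 2 groups in the fit, 27 were lower and 4 higher, where 41.7% of all genes were called. With total counts in place of TMM scaling, 4 were lower and 3 higher, and the count was 7 without olaparib replicate 2, 8 without olaparib replicate 1 or the combination's replicate 3, and 9 without the combination's replicate 1.

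The departure from additivity is the combination's log2 fold change minus those of enzalutamide alone and olaparib alone added together. It called 2 members, both higher than the sum, or 2.60% of the members, where 0.959% of all genes were higher and 2.26% called in either direction, with a median of 0.13 beside 0.01 over all genes. RPS20, a small-subunit protein, was at 906, 708 and 787 CPM in DMSO, 682, 651 and 634 with enzalutamide, 734, 722 and 762 with olaparib and 767, 734 and 772 CPM with the combination, a departure of 0.32 ± 0.09 (adjusted p = 0.0496). RPL10A had a departure of 0.28 ± 0.07 (adjusted p = 0.0335). The DMSO libraries enter this sum for both drugs. The count was 0 with only the groups compared in the fit, 1 with total counts, 5 in DESeq2, 6 with no low-count filter, 17 without DMSO replicate 2, 1 without DMSO replicate 3, olaparib replicate 1 or the combination's replicate 1, and 0 without replicate 2 or 3 of any of the 3 drug groups. Without DMSO replicate 1 the count was 2, but RPS20 was not called, with a departure of 0.22. The calls of RPS20 and RPL10A were lost under 11 and 9 of the other settings and left-out libraries.

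Genes around the ribosome were described through 6 lists, whose counts at 72 h stand beside the shares of all genes given above. Called lower were 14.6% with enzalutamide, 9.69% with olaparib and 22.6% with the combination. Called higher were 12.7%, 8.22% and 20% in the same order. Ubiquitin-fused and extra ribosomal proteins had 5 of 10 tested genes lower and 0 higher with enzalutamide at 72 h. FAU encodes a ubiquitin-like protein fused to RPS30. It was at 579, 304 and 329.6 CPM in DMSO and 295, 272 and 292 CPM with enzalutamide. FAU fell by 0.48 ± 0.11 (edgeR adjusted p = 0.0013), with DMSO replicate 1 far above the other DMSO cultures. Its value without that library is not given here. RPL22L1, the paralogue of RPL22, was at 383, 321 and 358 CPM and 263, 251 and 225 CPM, and fell by 0.52 ± 0.08 with enzalutamide and by 0.68 ± 0.08 with the combination. RPS27L, a paralogue of RPS27 known as a p53 target, rose with olaparib (0.55 ± 0.08) and the combination (0.69 ± 0.08), from 58.3, 79.1 and 78.0 CPM in DMSO to 105, 107 and 109 CPM and 119, 114 and 122 CPM. RPS27 itself was not called in either comparison (0.12 ± 0.08 and 0.13 ± 0.08).

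Translation factors and other genes with such tracts had 11 of 21 lower and 0 higher with enzalutamide at 72 h (median -0.15). NPM1, which shuttles ribosomal particles out of the nucleolus, fell by 0.48 ± 0.06 and the elongation factor EEF2 by 0.34 ± 0.07. Of 76 mitochondrial ribosomal protein genes, which build a separate ribosome, 33 were lower and 1 higher (median -0.20), and with the combination 47 were lower and 1 higher (median -0.29). MRPS26 fell most in both (-0.62 ± 0.12 and -1.03 ± 0.13), and MRPS6 rose in both (0.74 ± 0.11 and 0.39 ± 0.11). Host genes of small nucleolar RNAs had 5 of 13 lower and 0 higher with enzalutamide.

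RNA polymerase I and assembly genes were described at all 3 hours. Of 49 tested genes, 11 were lower and 0 higher with the combination at 8 h, or 22.4% lower, where 3.86% of all genes were lower. At 24 h the combination had 20 lower and 2 higher (40.8% lower, where 12% of all genes were), and enzalutamide 12 lower and 1 higher (24.5% lower, where 10.6% were). At 72 h, 23 were lower and 1 higher with enzalutamide (median -0.21), 26 lower and 2 higher with the combination (median -0.26), and 1 lower and 8 higher with olaparib (median 0.05). NOP16, a nucleolar factor of large-subunit assembly, was at 82.6, 55.6 and 57.3 CPM in DMSO, 43.07, 39.01 and 37.95 CPM with enzalutamide, 64.6, 64.6 and 63.3 CPM with olaparib and 35.8, 36.2 and 35.8 CPM with the combination. Its log2 fold changes were -0.67 ± 0.09, 0.02 ± 0.09 and -0.82 ± 0.09, the middle one not called. NCL, the nucleolar protein nucleolin, fell by 0.53 ± 0.10 with enzalutamide, with 3076, 1841 and 1929 CPM in DMSO, where replicate 1 was again the highest. The timing of these genes was not tested against that of the members.

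Genes that control ribosomal protein output were mixed, with 10 of 31 lower and 3 higher with enzalutamide at 72 h, 3 lower and 7 higher with olaparib, and 10 lower and 8 higher with the combination. MYC, which activates ribosome genes, was at 431, 491 and 452 CPM in DMSO, 314, 309 and 329 CPM with enzalutamide, 481, 488 and 469.6 CPM with olaparib and 344, 341 and 341 CPM with the combination. MYC fell by 0.53 ± 0.05 with enzalutamide and by 0.42 ± 0.05 with the combination and was not called with olaparib (0.07 ± 0.05). MTOR, the kinase that controls translation of these mRNAs, fell by 0.57 ± 0.07 with enzalutamide and by 0.64 ± 0.07 with the combination, and had a value of 0.15 ± 0.07 with olaparib (adjusted p = 0.121). DDIT4, an inhibitor of mTOR signalling, fell in all 3 comparisons (-0.96 ± 0.09, -0.92 ± 0.09 and -1.11 ± 0.10), and SESN1, another inhibitor and a p53 target, rose in all 3 (0.92 ± 0.08, 0.99 ± 0.08 and 1.94 ± 0.08).

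**Figure D4:**
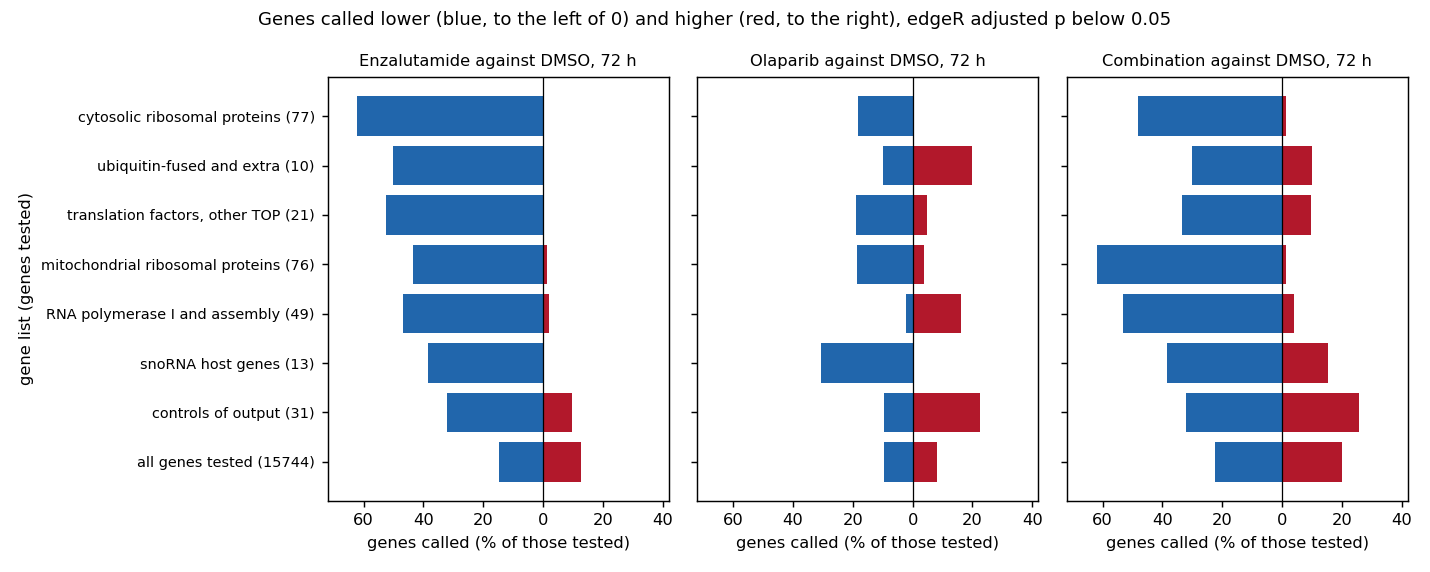
Horizontal bars give the percentage of tested genes called lower (blue, to the left) and higher (red, to the right) at 72 h against DMSO, for the 77 members, 6 lists and all 15744 genes, with the number tested in brackets. With enzalutamide the members' bar reaches 62.3% lower beside 14.6% for all genes, and with olaparib the bar of RNA polymerase I and assembly genes points mostly to the right.

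The log2 fold change with enzalutamide at 72 h was set against features of the 77 members. Across these genes, which share all libraries and are not independent, Pearson's r with the log2 fold change was -0.08 for log2 mean CPM, -0.05 for coding length, 0.09 for mRNA length, 0.04 for the shared coding bases and 0.21 for the pseudogene share. Spearman's rho was -0.01, -0.05, -0.07, -0.01 and 0.29. Members with a run of 8 or more C or T at the start had a median of -0.23 (32 of 51 called lower), and the 11 with a shorter run had a median of -0.22 (7 of 11). With olaparib the medians were -0.07 (9 of 51 lower) and 0.04 (3 of 11), and with the combination -0.15 (26 of 51) and -0.06 (3 of 11).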

How the data were processed

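RNA-seq was read from 36 LNCaP libraries, 3 cultures for each of 12 groups, 1 library of each group in each of 3 sequencing lanes. The authors deposited whole-number counts per gene, made with featureCounts 2.0.0 on Ensembl 99 genes (GRCh38), counting paired fragments of 20 to 5000 bases whose both ends aligned, with no strand setting, per the file headers. STAR, featureCounts, DESeq2 and the hg38 build are named in the submitters' processing notes.

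From these counts edgeR 4.0.16 fitted 12 group means to all 36 libraries with TMM scaling, its default low-count filter (15744 genes) and the quasi-likelihood test, which left 24 residual degrees of freedom. Calls were made at a Benjamini-Hochberg adjusted p under 0.05 over all genes tested. Printed levels are TMM-scaled CPM. The script was tested on simulated data. The design notes describe triplicate cultures, and p-values measure only the spread between such cultures of 1 line. Alternatives were other scalings, no filter, lane or replicate terms, only the groups compared, DESeq2 1.42.0, pseudogene counts added and each library left out.

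Members and lists were chosen with earlier results of these data known. Named members were up to 5 called rises and falls in each comparison, 15 genes chosen by role, and the 5 highest and 5 lowest per length, some of which are not reported here. From each list up to 3 called genes each way were eligible. Promoter sequences came from RefSeq (GRCh38.p14) and overlaps from GENCODE 29. RPL15, RPS27, RPS26 and RPS7, shown by promoter, and RPS2 with the combination were chosen after their values were seen.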

Additional observations from a re-analysis of the deposited data

Results flagged for a closer look

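The effect of enzalutamide differed between 72 h and 24 h in 29 members, all lower, by a test of the difference itself in edgeR, where 4.57% of all genes were lower and 9.41% called. RPS25 (-0.61), RPL36 (-0.52), RPS24 (-0.51), RPLP2 (-0.48) and RPL34 (-0.42) had the largest log2 differences among them. RPS25 was called higher at 72 h than at 24 h in the DMSO cultures themselves, a call lost without DMSO at 72 h replicate 1. In the enzalutamide cultures alone RPS25 was not called between these hours. The count was 11 with only the groups compared in the fit, 18 with total counts, and 18 to 39 with 1 library left out.

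The effect of olaparib differed in 4 members, RPS25 (-0.54), RPL41 (-0.41), RPL23A (-0.38) and RPL8 (-0.34). That is 5.19% of the members beside 4.6% of all genes called, and the count was 0 with only the groups compared and 0 to 21 with 1 library left out, the 0 without olaparib at 24 h replicate 1. The call of RPL23A was lost under 9 settings.

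The effect of the combination differed in 14 members, where 8.7% of all genes were called, with RPL38 (-0.69), RPS25 (-0.63), RPLP1 (-0.49), RPL23A (-0.48) and RPS19 (-0.47) the largest. The count was 5 with only the groups compared, 9 with total counts and 5 to 29 with 1 library left out, and the call of RPS19 was lost under 13 settings. These 3 tests share the DMSO libraries, so the change of RPS25 in DMSO enters all 3.

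The effect of 1 drug differed with the presence of the other at 72 h in 2 members, RPS20 (0.32) and RPL10A (0.28), both higher than the sum of the single drugs. That is 2.60% of the members beside 2.26% of all genes called. The count was 0 with only the groups compared and 0 to 17 with 1 library left out, and the 2 calls were lost under 11 and 9 settings.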

How the results depend on the processing

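With only the groups compared in the fit, the counts against DMSO were 9 (enzalutamide 24 h), 8 (enzalutamide 72 h), 1 (olaparib 24 h), 0 (olaparib 72 h), 8 (combination 24 h) and 15 (combination 72 h). The combination had 29 called against enzalutamide and 31 against olaparib, additivity 0, DMSO at 72 h against 24 h 0, and enzalutamide against olaparib 56. The change of effect from 24 h to 72 h had 11, 0 and 5 for enzalutamide, olaparib and the combination, and 72 h against 24 h had 13 for olaparib and 30 for the combination. With no low-count filter the counts were 3 for enzalutamide at 24 h, 2 for olaparib at 8 h, 1 at 24 h, 2 for the combination at 8 h, 6 for additivity, 12 for DMSO at 72 h against 24 h and 11 for the change of the olaparib effect. With total counts they were 7 for the combination against olaparib, 1 for additivity, 18 and 9 for the change of the enzalutamide and combination effects, 17 for enzalutamide at 72 h against 24 h and 15 for enzalutamide against olaparib. With a lane term they were 3 for enzalutamide at 24 h and 4 for DMSO at 72 h against 24 h. DESeq2 gave 2, 1 and 1 for enzalutamide at 24 h, olaparib at 24 h and the combination at 8 h, 5 for additivity and 14 for DMSO at 72 h against 24 h. RPL36A with the combination at 72 h turned to -0.23 with pseudogene counts added. The causes of these shifts were not tested. Shares of all genes called under the same settings are not given here, apart from those stated above for some fits of only the groups compared. Elsewhere these counts do not tell a shift of the members from one over all genes.

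With each library left out in turn, the counts against DMSO ranged over 0 to 2 (enzalutamide 8 h), 0 to 2 (24 h) and 39 to 53 (72 h), 4 to 25 for olaparib at 72 h, and 0 to 1, 1 to 2 and 27 to 43 for the combination at 8, 24 and 72 h. They were 6 to 8 for the combination against enzalutamide, 7 to 14 against olaparib, 0 to 17 for additivity and 0 to 29 for DMSO at 72 h against 24 h. For the change of effect they were 18 to 39, 0 to 21 and 5 to 29, for 72 h against 24 h 16 to 30, 0 to 5 and 7 to 12 (enzalutamide, olaparib, combination), and for enzalutamide against olaparib 20 to 24. The shares of all genes called with a library left out are not given here, so these ranges have no background beside them.

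Samples with the same replicate number did not deviate together (mean correlation 0.01, lowest -0.15), so the number was not taken as a pairing. With a replicate block 48 members were called for enzalutamide, 15 for olaparib and 39 for the combination at 72 h. Of 102 results for named members, 63 lost the call or changed sign under at least 1 setting.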
